A study of Vulpes vulpes with 48 samples.

Results

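The right basal forebrain of tame silver foxes (Vulpes vulpes) was compared with that of aggressive foxes by RNA-seq. Every library labelled basal forebrain that has a column of counts was taken, which gave 22 of the 46 libraries with counts in the series, 10 tame and 12 aggressive. The foxes were males aged 1.5 years, and poly(A) RNA was sequenced from each. Tame forebrain libraries ID488 and ID490 are listed in the labels and were not analysed here. The other 24 libraries are prefrontal cortex and enter only where the regions are compared.

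Silver foxes of the 2 kinds descend from farm populations bred over many generations for their response to people, one for tolerance of handling and the other for defensive aggression. The basal forebrain lies below the front of the brain and includes the septum and the cholinergic cell groups that project to the cortex and hippocampus. It takes part in arousal, attention and social and emotional behaviour. Each line is a breeding population, so what selection changed and what came from ancestry or drift cannot be told apart in a comparison of the lines. The labels give each library an identifier and do not state that each is a separate fox, so the p-values measure the spread between these libraries.

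Genes carry dog Ensembl identifiers. The files do not pair them with names, and none of the 13202 identifiers of the 2 count tables (0 matched) is in the fox RefSeq table at hand. Genes are therefore described by their values and by their rank of p-value, and at most 2 identifiers are given in each direction. For the same reason the tissue label could not be checked against marker genes, and no pathway could be counted.

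Few genes passed the test of a line difference, and most of these differed by modest amounts. With edgeR's quasi-likelihood test, 12 of 12915 genes passed a Benjamini-Hochberg adjusted p of 0.05, which is 0.0929% of the genes tested; 9 were higher in tame foxes (0.0697%) and 3 lower (0.0232%). Their absolute log2 fold changes ran from 0.36 to 1.43, with a median of 0.47, against a median of 0.095 over all genes tested. The next gene in order had an adjusted p of 0.0847. At an adjusted p under 0.2 there were 57 genes, 30 higher and 27 lower. In whole tissue, fewer cells of a type and less RNA per cell cannot be told apart.

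ENSCAFG00000003681 had the smallest p-value. Its level in CPM (counts per 1000000 counts of the library, scaled by TMM, the trimmed mean of M-values) was 4.01 at the lowest, 6.96 at the median and 7.92 at the highest of the 10 tame libraries. In the 12 aggressive libraries it was 2.21, 3.39 and 4.80. Tame library ID541 was the one tame library inside the aggressive range, and the other 9 lay above every aggressive library. The level was 1.95-fold higher in tame foxes (log2 fold change 0.96, SE 0.12, edgeR adjusted p = 0.000903). The counts behind these values ran from 20 to 100 per library.

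ENSCAFG00000007149 stood at 9.91, 16.5 and 24.1 CPM (lowest, median and highest) in the tame libraries. In the aggressive libraries it stood at 7.03, 9.05 and 11.99 CPM. Here tame library ID487 alone fell inside the aggressive range, so the single overlapping library was not the same as for the first gene. The level was 1.87-fold higher in tame foxes (log2 fold change 0.90, SE 0.14, edgeR adjusted p = 0.00616).

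ENSCAFG00000015743 led the genes that were lower in tame foxes. It stood at 64.7, 72.8 and 91.4 CPM in the tame libraries and at 77.0, 99.6 and 121 CPM in the aggressive libraries. Of the tame libraries, 7 lay below every aggressive library, and the aggressive minimum came from ID595. The level was 1.36-fold higher in aggressive foxes (log2 fold change -0.44, SE 0.075, edgeR adjusted p = 0.0143).

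ENSCAFG00000007746 stood at 6.64, 8.96 and 12.4 CPM in the tame libraries and at 8.96, 13.3 and 15.8 CPM in the aggressive libraries. The lines overlapped more for this gene, with 5 tame libraries below the aggressive range. Tame library ID482 was the highest of its line, and aggressive library ID533 the lowest of its own. The level was 1.52-fold higher in aggressive foxes (log2 fold change -0.61, SE 0.11, edgeR adjusted p = 0.0143). With ID541, ID530 and ID540 left out together, both lower genes had an adjusted p of 0.0522, and 3 of the 12 genes passed, all higher in tame foxes. The log2 fold changes of the 2 lower genes were then -0.44 for ENSCAFG00000015743 and -0.64 for ENSCAFG00000007746, about as large as with all libraries.

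**Figure D1:**
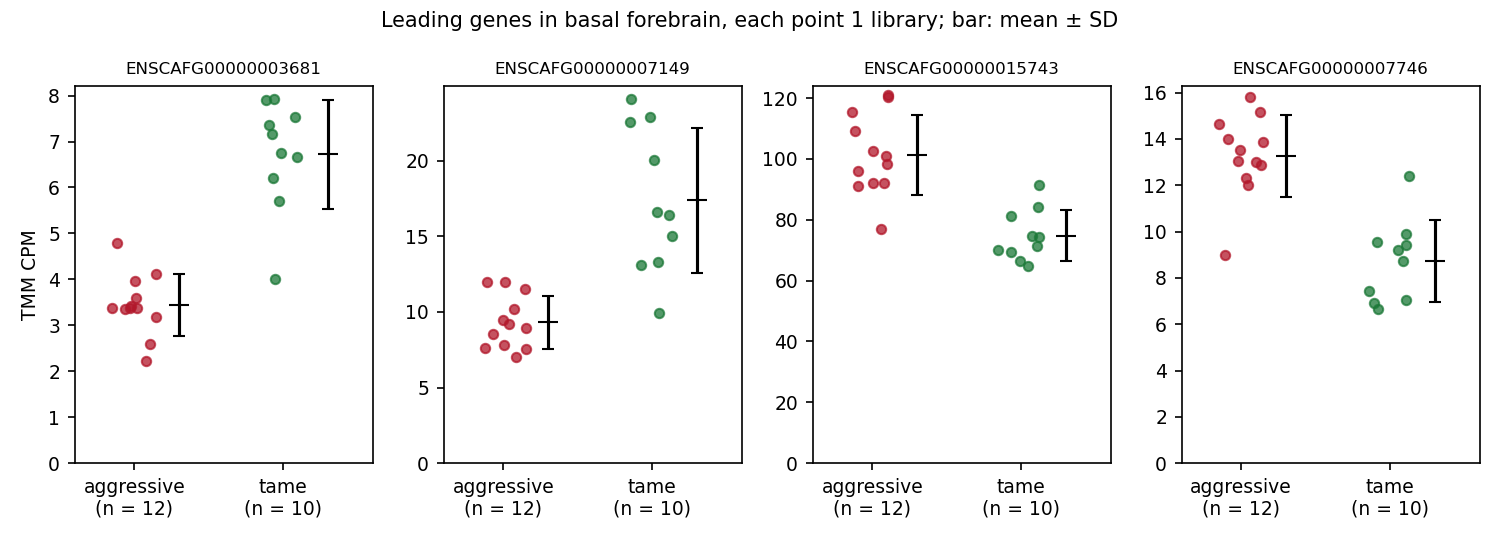
Level of the leading 2 genes higher and 2 genes lower in tame foxes, in TMM-scaled CPM on a vertical axis from 0; each point is 1 of 22 basal forebrain libraries and the bar is the mean ± SD of a line. In each panel the lines are shifted against each other and overlap by at least 1 library.

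The other 8 genes past the threshold showed the same partial overlap. The gene at rank 3 was the most abundant of the 12, with a tame mean of 173 ± 17.6 CPM (SD, n = 10) and an aggressive mean of 135 ± 9.48 CPM (SD, n = 12). Of its tame libraries, 9 lay above every aggressive library, and the exception was ID483 at 131 CPM, below the aggressive median of 135. The gene at rank 9 was the least abundant and had the largest fold of the 12. Its mean was 4.61 ± 2.60 CPM in the tame and 1.72 ± 0.615 CPM in the aggressive libraries, a 2.70-fold difference (1.43 on the log2 scale, SE 0.27, edgeR adjusted p = 0.0293). Tame library ID485 reached 10.2 CPM. The third gene lower in tame foxes, at rank 8, stood at 94.5 ± 13.9 against 124 ± 9.34 CPM, with 9 tame libraries below the aggressive range. The 5 genes left, at ranks 5, 7, 10, 11 and 12, were higher in tame foxes by 1.28-fold to 1.48-fold.

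No gene separated the lines completely. In 0 of 12915 genes (0%) did every tame library lie outside the aggressive range on one side; the nearest genes had 9 of 10 tame libraries there. In 46 genes (0.356%), 20 higher and 26 lower in tame foxes, every library of each line lay beyond the median of the other line, and 10 of the 12 called genes were among them. All 10 tame libraries lay on one side of the aggressive median in 378 genes (2.93%). Between 53.0% and 74.9% of the variance of a called gene lay between the lines, on the log2 scale. For the median gene it was 4.28%, and 24 genes had more than 50% of their variance between the lines. The called genes were picked for a large line difference relative to the spread within lines, so their high share follows from the choice.

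The 12 genes did not move as 1 block from library to library. After the mean of each line was removed, the absolute correlation of log2 CPM between 2 of them had a median of 0.159 over 66 pairs and 22 libraries. Over all pairs of genes tested the median was 0.241, and these values share the same libraries and scaling. The 12 were picked for a line difference large against the spread within lines, so their lower median may follow from the choice. An absolute correlation above 0.6 was found in 2 of the 66 pairs, and in 6.602% of all pairs of genes tested. The genes at ranks 8 and 9, which differed between the lines in opposite directions, were correlated at 0.670 within the lines. The genes at ranks 3 and 12, both higher in tame foxes, were correlated at -0.659. For each gene, libraries were also placed on the tame or aggressive side of the midpoint between the lines. Tame ID485 and aggressive ID530, ID532, ID536 and ID539 were on the side of their own line for all 12 genes, and ID541, the lowest, was for 8. These genes were chosen with those libraries included, so the placements are a description.

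The precision of the data set bounds on the genes that did not pass. The median SE of a log2 fold change was 0.094. The 95% interval of the line difference lay within 1.5-fold in either direction for 10926 genes (84.6%), within a log2 difference of 0.32 for 7089 (54.9%) and within 2-fold for 12421 (96.2%). Precision rose with the level of the gene. In the 25% of genes with the lowest mean counts, at 9.14 to 124 counts per library, 59.3% had an interval within 1.5-fold, and in the highest 25% the share was 95.5%. Called genes came from all levels, with 4, 1, 2 and 5 in the 4 classes of equal size from the lowest to the highest. In 1490 genes the unadjusted p was under 0.05 (11.5%), 741 higher and 749 lower in tame foxes. The called genes are therefore no count of all genes that may differ between the lines.

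The 22 libraries held 6.25 to 13.6 M counts (1 M is 1000000; median 9.80 M), over genes in the table. Of 7 library measures, none differed between the lines after adjustment. The nearest was the share of counts in the 100 most abundant genes, with a tame mean of 14.8% ± 0.397 (SD, n = 10) and an aggressive mean of 14.6% ± 0.253 (SD, n = 12; two-sided permutation test, p = 0.0785, adjusted p = 0.383). Libraries of the same line were hardly more alike than libraries of different lines, with mean correlations of log2 CPM of 0.971 and 0.969 across genes. The first and second principal components held 25.4% and 22.96% of the variance. Line accounted for 9.89% and 0.189% of the variance in their scores. Among the first 6 components the share was highest for the fourth, at 19.9%, and the sixth, at 12.8%, which held 5.72% and 3.90% of the total variance; these shares were not tested.

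Some libraries stood apart on each axis. Tame ID483 scored 70.7 on the first component, and the next library, tame ID485, scored 25.3. On the second component aggressive ID530 and ID540 and tame ID541 scored -47.5, -34.9 and -35.9, and the lowest other library scored -18.0. Both lines are represented at that end, so the second axis does not follow the labels.

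**Figure D2:**
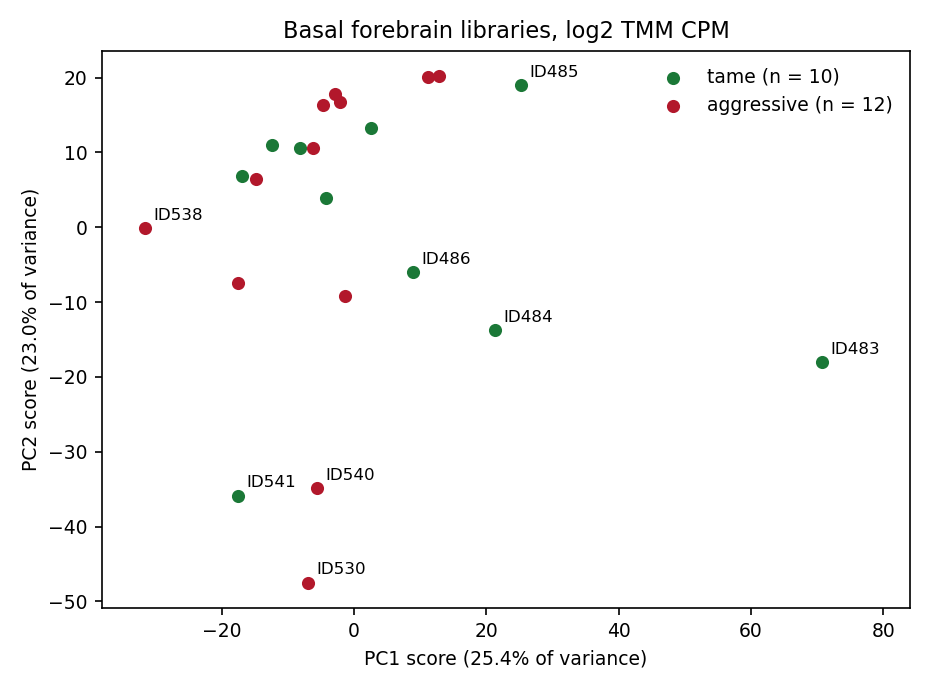
Scores of the 22 basal forebrain libraries on the first (horizontal) and second (vertical) principal component of log2 TMM CPM, coloured by line. ID483 lies at 70.7 on the first component, ID530, ID540 and ID541 lie between -47.5 and -34.9 on the second, and the other libraries of the 2 lines are mixed.

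Some genes were raised in a few libraries of both lines, and they were only partly the same genes from library to library. Among 11423 genes with a mean of at least 50 counts, those more than 4-fold above the median of the 22 libraries were counted in each library. In 6 libraries there were 20 or more. They numbered 164 in tame ID483, 89 in aggressive ID530, 65 in aggressive ID540, 51 in tame ID484, 39 in tame ID541 and 26 in tame ID486. The other 16 libraries had at most 17 each.

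Genes of this set were shared between libraries to differing degrees. Of the 51 genes of ID484, 50 were also among the 164 of ID483 (98.0% of the first and 30.5% of the second) and all 51 among the 89 of ID530 (100% and 57.3%). ID530 and ID540 shared 63 genes (70.8% and 96.9%), and ID530, ID540 and ID541 shared 32. The largest overlap of ID483 was with ID530, at 76 of its 164 genes (46.3%). ID486 shared from 11 (with ID484) to 18 (with ID530) of its 26. Since the sets were picked for high values in those libraries, they are described and not tested.

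The raised genes differed between libraries in how they stood in prefrontal cortex, the other region of the series. All 26 genes raised in ID486 were more than 2-fold higher in cortex than in forebrain on average, with a median forebrain minus cortex difference of -2.61 on the log2 scale. In ID541 the same held for 28 of 39 genes (median -1.48). ID530, ID540 and ID484 lay between, with 34 of 89, 25 of 65 and 19 of 51 genes (medians -0.57, -0.61 and -0.63). In ID483 it held for 30 of the 158 raised genes that are in the cortex table, with a median of -0.065, and over all 11368 such genes for 571, with a median of 0.072. Each region has its own table of counts, and differences between the tables enter these values. The share of cortex tissue in a dissection was not tested.

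**Figure D3:**
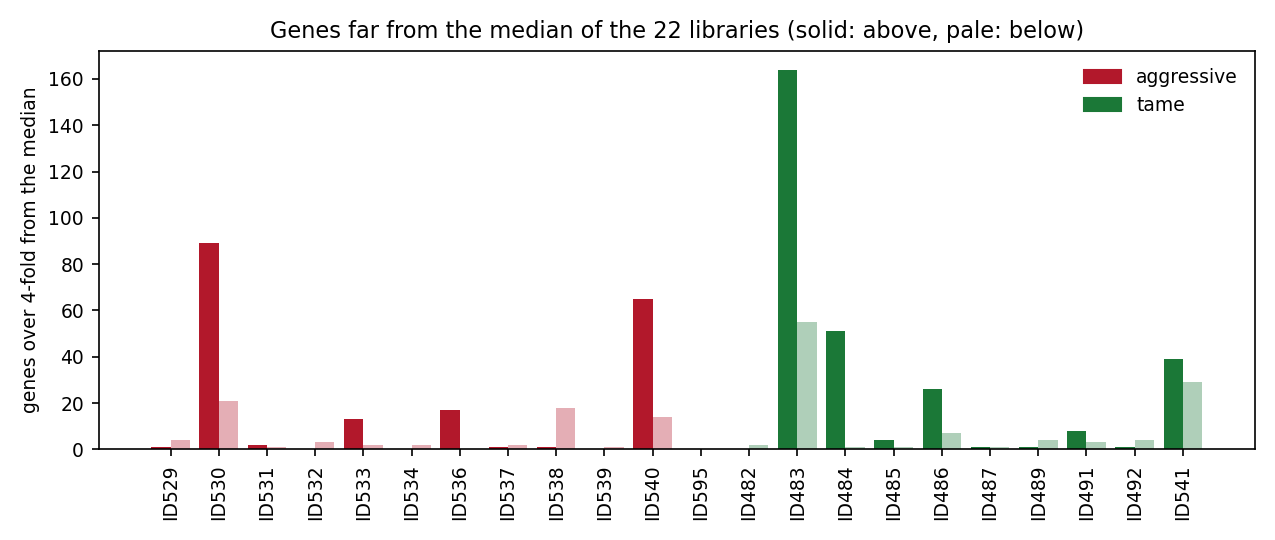
Number of genes (vertical axis) more than 4-fold above (solid bars) or below (pale bars) the median of the 22 libraries, for each basal forebrain library, coloured by line, among 11423 genes with a mean of at least 50 counts. ID483 has 164 genes above and 55 below, and ID530, ID540, ID484, ID541 and ID486 follow with 89 to 26 above.

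The balance of large differences between the lines moved with 1 library. With all 22 libraries, the absolute log2 fold change was over 0.32 in 920 genes, 720 higher and 200 lower in tame foxes. It was over 0.58 (1.5-fold) in 157 genes higher and 32 lower, and over 1 (2-fold) in 27 genes, 21 higher and 6 lower. Most genes of this kind did not pass the test: 12, 4 and 1 of them did. Their median mean counts were 75.9, 53.0 and 97.0 per library.

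Without ID483 the excess of genes higher in tame foxes was absent at 1.5-fold and 2-fold and smaller at a log2 fold change of 0.32. There were then 400 genes higher and 257 lower past 0.32, 57 and 56 at 1.5-fold, and 5 and 7 at 2-fold. When any other library was left out, at least 126 genes were over 1.5-fold higher and at most 46 lower. For 18 of the 27 genes over 2-fold, the difference of mean log2 CPM shrank by more than 30% without a single library, and that library was ID483 for 17 of them and aggressive ID529 for 1. The number of genes over 2-fold also rose to 60 without ID530, 46 without ID541, 43 without ID540 and 41 without ID487 or ID492. The genes lower in tame foxes by more than 0.32 rose from 200 to 312 without ID541. The calls went from 9 higher and 3 lower in tame foxes to 6 higher and 4 lower without ID483. Of the 12 genes, 9 were among these 10. Such a shift in calls was not particular to ID483. They were also 6 higher and 4 lower without ID538, and 7 higher and 8 lower without ID487.

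**Figure D4:**
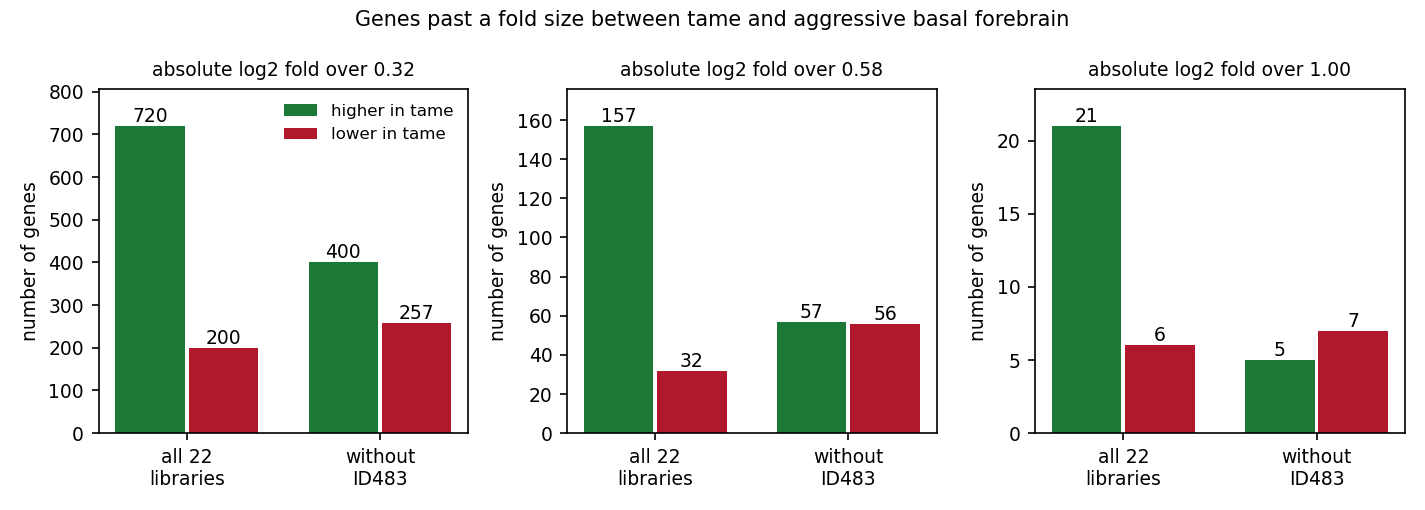
Number of genes (vertical axis, from 0) whose absolute log2 fold change between tame and aggressive basal forebrain exceeds 0.32, 0.58 (1.5-fold) or 1 (2-fold), higher or lower in tame foxes, with all 22 libraries and without tame library ID483. At 1.5-fold the counts go from 157 higher and 32 lower to 57 and 56.

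The spread among libraries of 1 line was compared gene by gene. The median coefficient of variation of CPM was 15.9% in tame and 14.02% in aggressive foxes, and it was larger in tame for 62.1% of genes. Without ID483 the tame median was 14.3%, and the coefficient was larger in tame for 50.5% of genes. A limma test on absolute deviations from the line mean called 0 genes (0%), with 984 at an unadjusted p under 0.05 (7.62%), 706 with larger spread in tame and 278 in aggressive foxes. Without ID483, 817 genes had an unadjusted p under 0.05, 391 larger in tame and 426 in aggressive foxes. An F-test of the variances, added after the data were seen, called 3 genes, 1 larger in tame and 2 in aggressive foxes. On simulated data the limma test recovered few genes even where the SD was several times larger, so its count of 0 is no sign of equal spread.

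Line differences of the forebrain genes were set beside those of prefrontal cortex, measured in 12 tame and 12 aggressive libraries. In cortex, 55 of 12705 genes passed the same test (0.433%). Of the 12 forebrain genes, 11 were tested there, all 11 had the same direction, and 7 passed. The share of all genes with the same direction in cortex and forebrain is not given here, so the 11 have no background to be set against. The labels do not state whether cortex and forebrain libraries come from the same foxes, so the shared direction may not be independent evidence. The gene at rank 3 had a log2 fold change of 0.36 (95% interval 0.24 to 0.47) in forebrain and 0.82 (0.46 to 1.18) in cortex, the widest gap towards cortex. ENSCAFG00000007149 had 0.90 (0.61 to 1.19) in forebrain and 0.53 (0.29 to 0.77) in cortex.

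The difference between regions was tested itself, as an interaction of line and region in all 46 libraries. No gene of 12695 passed in edgeR (0 genes, 0%, smallest adjusted p = 0.327), and DESeq2 called 2 genes. In edgeR, 1853 of the 12695 had an unadjusted p under 0.05, against 1490 of 12915 in the forebrain line comparison. The count of 0 is therefore no sign that the line differences are the same in both regions. For the 12 forebrain genes the interaction ran from -0.45 (SE 0.19), at rank 3, to 0.39 (SE 0.18), for ENSCAFG00000007149, on the log2 scale, with edgeR adjusted p-values of 0.327 or more. For ENSCAFG00000015743, at -0.44 in forebrain and -0.12 in cortex, the 95% interval of the interaction ran from -0.64 to 0.026. Before adjustment, the interval excluded 0 at ranks 2 (0.015 to 0.76), 3 (-0.84 to -0.068) and 11 (0.020 to 0.71). It included 0 at the other ranks. With no adjusted p under 0.05, none of the 12 genes was shown to differ between lines in the forebrain alone. On the first principal component of cortex, which held 78.1% of the variance there, 5 tame libraries lay beyond the largest gap between libraries, and their part in the cortex values was not tested.

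**Figure D5:**
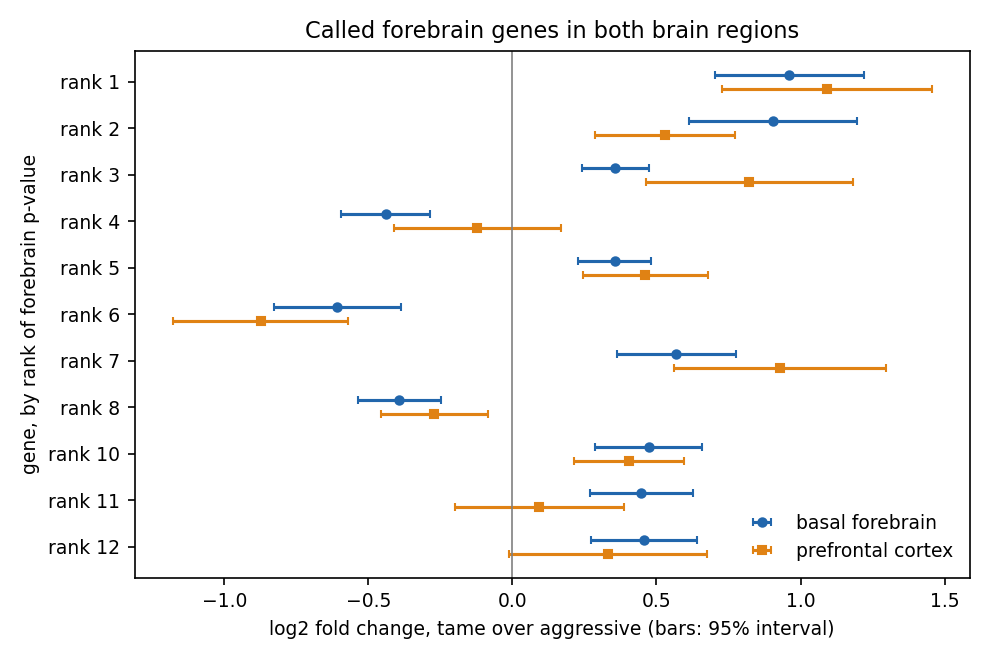
Log2 fold change of tame over aggressive foxes (horizontal axis, bars: 95% interval) in basal forebrain and in prefrontal cortex for the 11 called forebrain genes also tested in cortex, by rank of forebrain p-value. All 11 lie on the same side of 0 in both regions, and the cortex interval includes 0 at ranks 4, 11 and 12.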

How the data were processed

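For each brain region the authors deposited estimated counts per gene in a table with a column per library and dog gene identifiers per the file headers. Per the submitters' processing notes, CASAVA 1.8.2, FastQC, Trimmomatic, BWA, bedtools and edgeR were used, with dog build canFam3; which tool did what is not given in the sources used here. Fox reads counted on dog genes depend on how well the 2 genomes match. In the forebrain table, 4.43% of values were not whole, in 672 of 13089 genes, and 511 genes had the same values as another gene in every library. None of the 12 called genes was among the 511 (0), and 1 of them had counts that were not whole.

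Counts were rounded. Low genes were removed by filterByExpr (edgeR 4.0.16, minimum count 10) and libraries scaled by TMM and genes tested by the quasi-likelihood F-test (robust=TRUE, line as the only term, R 4.3.3), adjusted by Benjamini-Hochberg over all genes. Fold changes are tame over aggressive. Components, distances and spread were computed from log2 CPM after TMM scaling (prior count 2). Library measures were compared by two-sided permutation tests (100000 shuffles) and adjusted over 7 measures. Spread used limma 3.58.1. Alternatives covered scaling, filters, rounding, depth, edgeR's exact test, DESeq2 1.42.0, limma-voom, the Wilcoxon test, surrogate variables (sva 3.50.0) and leaving out libraries. The line, spread and interaction tests were tested on simulated data; the permutation tests and the alternative tools were not. Genes were named by p-value, at most 2 identifiers in each direction because none could be paired with a symbol; 24 gene lists were not used for that reason. The comparison, the lists and the tests were chosen with earlier results of these data known. Depth limits are counting error only, and precision is given as the SD or SE between libraries.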

Additional observations from a re-analysis of the deposited data

Results flagged for a closer look

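Each value of the 10 tame libraries was checked for a library far from the rest of its line, over 11 library measures and the 12 called genes. Of these 23 checks 5 stood out, where chance gives about 1.15, and all 5 are from library ID483, so they are not independent. The aggressive group, with 12 libraries, was not checked in this way. ID483 scored 70.7 on the first principal component, and the nearest tame library scored 25.3. Its mean correlation with the other 21 libraries was 0.930, and the next lowest tame value was 0.960. It had 164 genes more than 4-fold above the median of all libraries (next 51) and 55 genes more than 4-fold below (next 29). For the gene at rank 3 it stood at 131 CPM, and the next lowest tame library stood at 164 CPM. Its total of 12.6 M counts (1 M is 1000000) was within the range of the other libraries. RNA quality and dissection of this sample were not tested.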

How the results depend on the processing

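The 12 genes of the line comparison changed in number with the test and less with scaling, filtering or depth. DESeq2 size factors, upper-quartile scaling, no filter, a mean of 50 counts, whole counts and robust=FALSE gave 11 or 12 genes, limma-voom with quality weights 13 (10 of the 12 shared) and libraries thinned to 6.25 M counts 14 (9 shared). DESeq2 gave 53 (24 higher, 29 lower, all 12 shared), surrogate variables 29 (15 and 14, 11 shared) and a test against a 1.2-fold change 1. With edgeR's exact test there were 29. The Wilcoxon test gave 0, with 1149 genes at an unadjusted p under 0.05. Its adjusted p for the 4 named genes was 0.0799 to 0.106. The p-values of a rank test move in coarse steps with 10 against 12 libraries, and no gene separated the lines completely. The Wilcoxon count of 0 is therefore no sign that these genes do not differ. Against 1.2-fold, ENSCAFG00000003681 passed (adjusted p = 0.0116) and ENSCAFG00000007149 did not (0.0850). Leaving out ID541, ID530 and ID540, or these and ID483, left 3 genes, in fits of 19 and 18 libraries; both were chosen after seeing the data. Leaving out each library gave 8 (without ID530) to 16 (without ID492) genes; 8 of the 12 passed in all 22 fits and the 4 others in 6 to 12. The number of genes with an interval within 1.5-fold was 10910 with DESeq2 size factors, 10624 to 11265 without 1 library, and 7089 for the narrower interval of 0.32 on the log2 scale. Unequal spread was called in 0 to 2 genes without 1 library, and by the F-test in 3, in 1 without ID483 and in 0 without the 4 libraries. For the interaction, DESeq2 called 2 genes; limma-voom called 1 with a replicate block over 20 pairs of libraries of a line sharing the last 2 digits of their identifier, and 0 without the block. The labels do not state that these digits mark a fox. The cause of these changes was not tested.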

Other observations

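The rows of the deposited forebrain table were nearly in the order of the line comparison. Across the 12915 genes tested, row position and edgeR quasi-likelihood p-value had a Spearman correlation of 0.976, and with edgeR's exact test it was 0.990. All 12 genes called by the quasi-likelihood test were within the first 20 rows. The exact test called 29 genes, 17 of them within the first 20 rows and the last at row 87. The correlation is across genes of the same libraries and is a description.

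Sample quality weights of limma-voom, which set how much each library counts, ran from 0.218 for ID483 to 2.05 for ID491, both tame. The next lowest weight was 0.493, for tame library ID485.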
